A study of Mus musculus with 6 samples.

Results

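Cyclins, the cyclin-dependent kinases (CDKs) they activate, the CDK inhibitors and the Cdc25 phosphatases were followed in mouse embryonic stem cells that carry or lack Mettl5. The members are genes of the deposited table whose symbol follows the naming pattern of these families (Ccn and a letter, Cdk and a number, Cdkn and a number and letter, Cdc25a to Cdc25c), a rule on names and not on values. The pattern matched 38 rows, of which 36 were analysed here. They number 36 of the 9093 genes in the table, made up of 13 cyclins, 15 kinases, 5 inhibitors and 3 phosphatases. None was removed by a filter on low values, and all 36 were tested. Ccnd1, Ccnd2, Ccne2, Cdk6 and Cdkn2c were not analysed here.

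A CDK is inactive until a cyclin binds it. D-type cyclins with Cdk4 or Cdk6 phosphorylate the retinoblastoma protein and release E2F factors in G1, cyclin A with Cdk2 drives S phase, and cyclin B with Cdk1 starts mitosis once a Cdc25 phosphatase has removed inhibitory phosphates from the kinase. Inhibitors of the INK4 class bind Cdk4 and Cdk6, and those of the Cip/Kip class bind whole cyclin and CDK complexes. A separate branch of the family (Cdk7, Cdk8, Cdk9, Cdk11, Cdk12 and Cdk13, with cyclins C, H, K, L and T) acts on RNA polymerase II and on splicing and not directly on the cell cycle, although Cdk7 also activates the cell cycle CDKs. Mouse embryonic stem cells are known for a short G1 phase.

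The study compared wild-type (WT) cells with cells in which Mettl5, the enzyme that methylates 18S ribosomal RNA, had been knocked out (KO) by CRISPR/Cas9, and its title concerns differentiation. Both genotypes came from 129Sv females crossed to C57BL/6 BVSC males and were grown with the MEK inhibitor PD0325901 (1 µM), the GSK3 inhibitor CHIR99021 (3 µM) and leukemia inhibitory factor (1000 U/ml). After cycloheximide, which holds ribosomes on mRNA, ribosome-protected fragments (footprints) were sequenced in 2 WT and 2 KO libraries, and input mRNA in 1 library of each genotype. The labels give neither the number of KO clones nor whether libraries came from separate cultures. The p-values therefore rest on the spread between these few libraries, which may be technical and was largely pooled over genes. An effect of Mettl5 cannot be told apart from differences between the lines.

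Footprint libraries held 2060010 to 8675267 reads, and the input libraries 15931259 and 17912908. Values are given in CPM, the reads of a gene scaled by the total reads of the library, and translational efficiency (TE) is footprint CPM over input CPM. The targeted gene bore out the labels, since Mettl5 had 123 and 127 CPM of footprints in WT and 9.71 and 11.2 CPM in KO (-3.53 ± 0.14 SE in log2 by edgeR, adjusted p = 2.23e-130). All 10 naive pluripotency markers were measured, with summed footprints of 4731 and 4753 CPM in WT against 5318 and 5262 CPM in KO. Fibroblast and endoderm markers were lower in KO. The 3 of 9 measured fibroblast markers, Col1a1, Col5a1 and Fbln2, summed to 365 and 372 CPM in WT against 30.6 and 22.7 CPM in KO, and the 5 of 9 measured endoderm markers, all basement membrane or matrix genes, summed to 3220 and 3222 against 1836 and 1894 CPM. The endoderm factors Gata4, Gata6, Sox17 and Foxa2 were not analysed here. In bulk libraries fewer cells of a type and less RNA per cell cannot be told apart, and the part of these markers in the values below was not tested. Whole chromosomes also differed, with a median log2 footprint change of 0.39 on chromosome 8, 0.31 on 6, -0.19 on 11 and -0.25 on 16.

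Cell cycle regulators as a family moved in both directions in footprints. With edgeR's quasi-likelihood test and Benjamini-Hochberg adjustment at 0.05, 8 of 36 members were higher in KO (22.2%, against 18.3% of all genes) and 7 were lower (19.4%, against 16.0% of all genes), while 21 passed in neither direction. These shares are near those of the whole table, and so is the median log2 change, 0.05 for the members and 0.00 for all genes. The risers were Cdk10, Cdkn1b, Cdk18, Cdkn2a, Ccnb1, Ccnt1, Ccna2 and Ccnc, and those that fell were Ccnl1, Cdk12, Ccnf, Cdk7, Ccnt2, Ccnd3 and Cdk9. Changes of the called members ran from -0.60 for Ccnl1 to 1.05 for Cdk10. KO libraries lay above both WT libraries for 11 members (30.6%, against 29.8% of all genes) and below both for 10 (27.8%, against 34.8%).

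**Figure D1:**
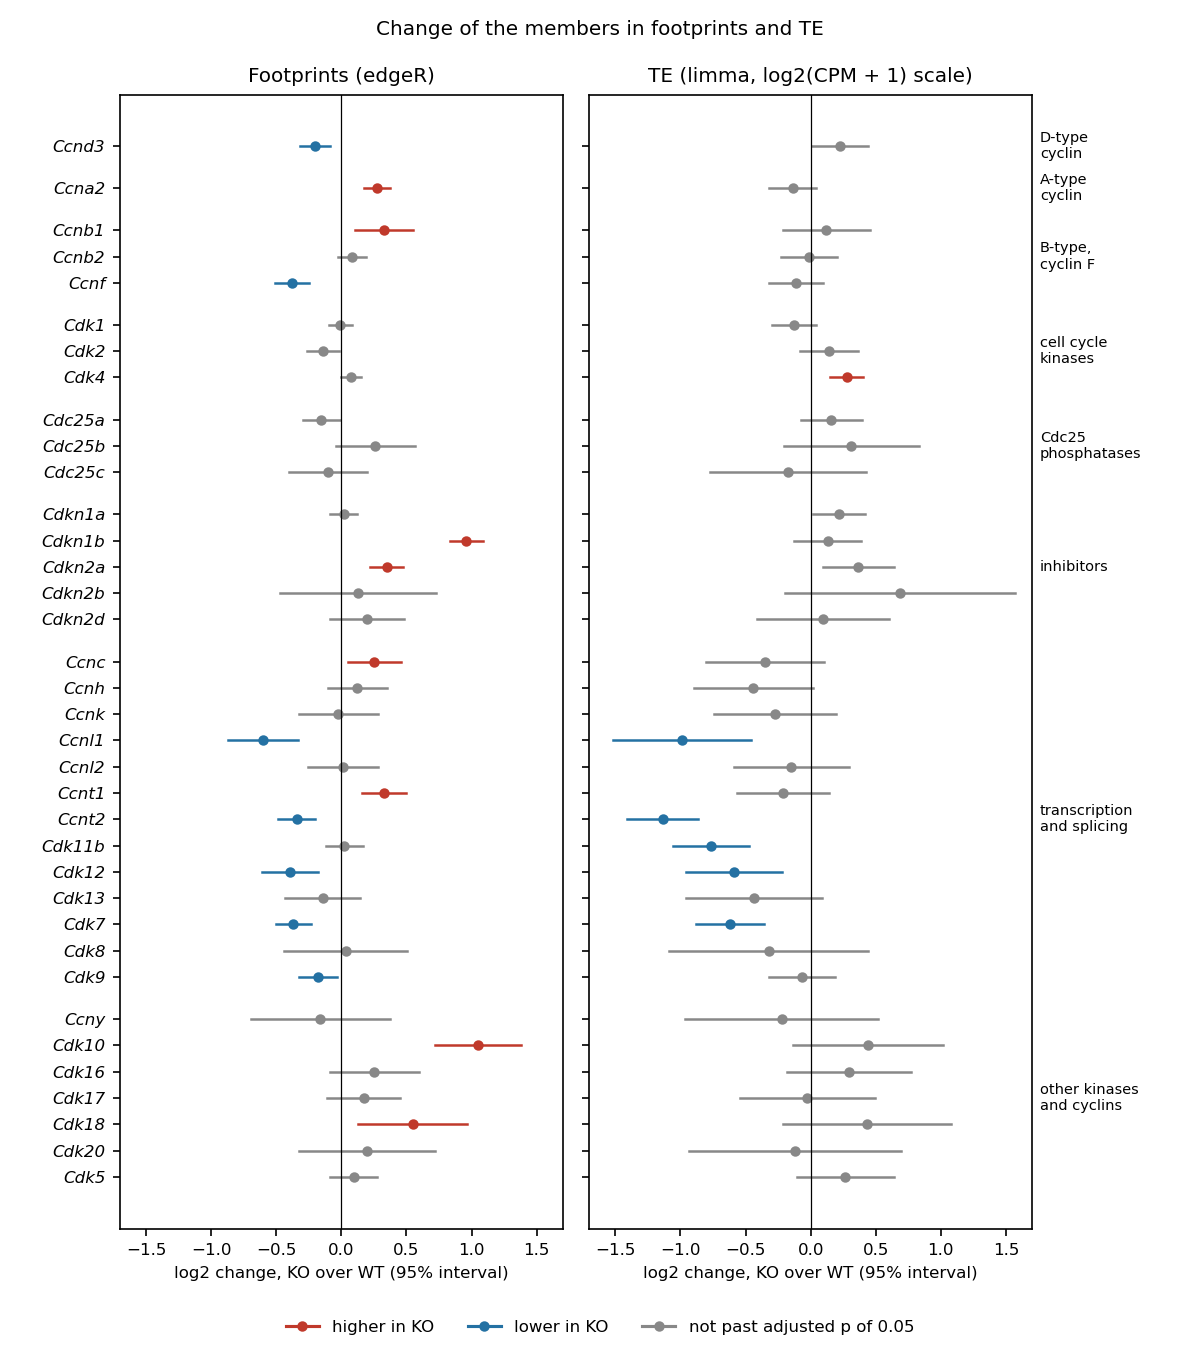
Log2 change of footprints (left, edgeR) and of TE (right, limma) in KO over WT for the 36 members, grouped by role, with points at the estimate and bars for the 95% interval. Cdk10 and Cdkn1b stand farthest to the right in footprints, and all 5 members with lower TE lie in the transcription and splicing group.

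In TE, tested with limma as the footprint change beyond that of input, 1 member was higher (2.78%, against 4.88% of all genes) and 5 were lower (13.9%, against 12.8%). Cdk4 was the higher one. Ccnt2, Ccnl1, Cdk11b, Cdk7 and Cdk12 were the lower ones, and all 5 act in transcription or splicing. The median TE change was -0.09 for the members and -0.03 for all genes, on the log2(CPM + 1) scale. With a single input library per genotype, these calls assume that input varies as little as footprints. All 6 were lost when a spread of 0.2 (log2) was added for each input library, with limma adjusted p = 0.246 for Ccnt2, 0.45 for Ccnl1, 0.473 for Cdk11b, 0.63 for Cdk7, 0.728 for Cdk12 and 0.903 for Cdk4.

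Input mRNA, compared between single libraries and without a test, was past 1.5-fold higher in KO for 3 members (against 15.1% of all genes) and past 1.5-fold lower for 0 (against 6.17%). The 3 were Cdkn1b at a log2 ratio of 0.79, Cdk11b at 0.77 and Ccnt2 at 0.75. Median input ratios were 0.10 for the members and 0.05 for all genes. Across the 36 members, which were all measured in the same 6 libraries, footprint change and input ratio had a Pearson r of 0.289 (Spearman rho 0.246), and all 9093 genes had 0.523 (0.464). Genes are not independent replicates.

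**Figure D2:**
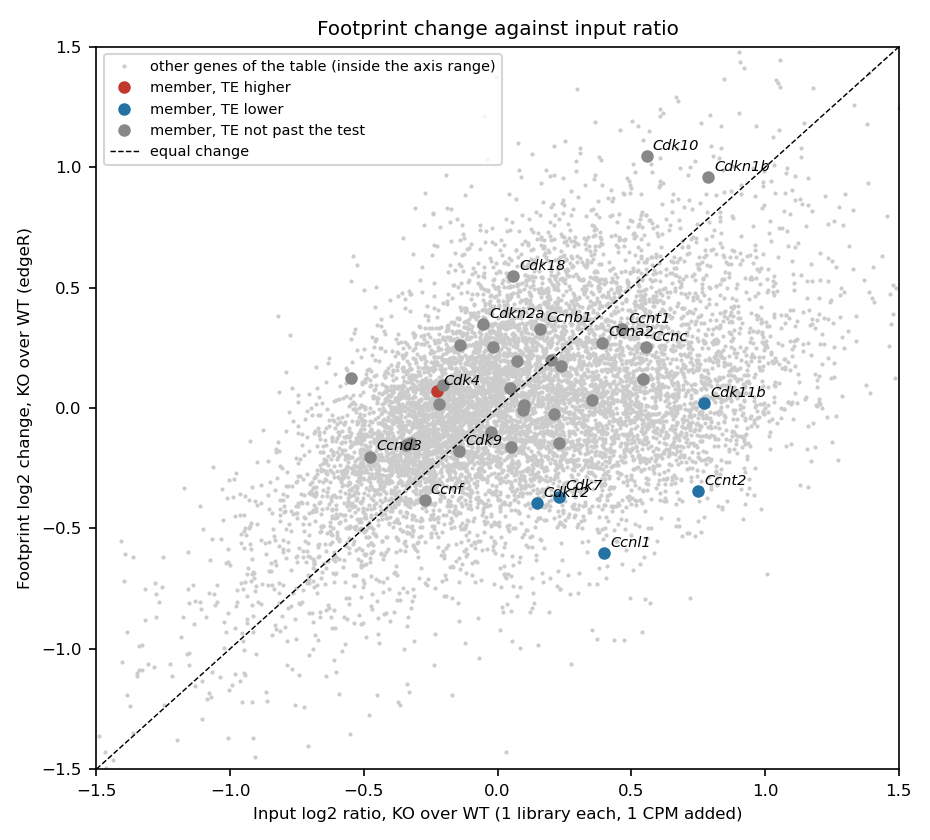
Footprint log2 change (edgeR) against the input log2 ratio (1 library per genotype, 1 CPM added), KO over WT, for the members (large points, coloured by TE call) and the other genes of the table (small points). Cdkn1b lies near the line of equal change, whereas Ccnt2 and Ccnl1 have higher input and lower footprints in KO.

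The D-type cyclin analysed here was Ccnd3 (ENSMUSG00000034165.16, chromosome 17, 47505051 to 47599689, GRCm38.p6). Cyclin D3 pairs with Cdk4 and Cdk6 in G1. Its footprints were 246 and 237 CPM in WT against 189 and 217 CPM in KO. Both KO libraries were below both WT libraries, a log2 change of -0.20 ± 0.06 SE (edgeR adjusted p = 0.00294). The call was lost without the first KO library (adjusted p = 0.18) and with DESeq2 (adjusted p = 0.107). Input of Ccnd3 was 457 CPM in WT against 328 CPM in KO (log2 ratio -0.48, 95% counting interval -0.53 to -0.43). Its TE did not pass the test (0.22, limma adjusted p = 0.156) but did so with median centring (0.0436) and when the first KO library was left out (0.00223). The gene overlaps Bysl, and strand use in counting is not given in the sources used here, so reads of the overlap are uncertain.

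Cdk4, the G1 kinase that D-type cyclins activate, had more footprints than any other member, but levels of different genes are not compared here because gene lengths differ. Its footprints were 610 and 621 CPM in WT against 633 and 641 CPM in KO (log2 change of 0.07 ± 0.04 SE, edgeR adjusted p = 0.156). Its mRNA in the input was 746 CPM in WT against 638 CPM in KO (log2 ratio -0.23, -0.26 to -0.19). TE was 0.818 and 0.833 in WT and 0.994 and 1.00 in KO, and the TE change was 0.28 ± 0.06 SE (limma adjusted p = 0.00282). Both TE values of a genotype share 1 input library, so the gap between them carries no spread of input. With the added input spread the call was lost (limma adjusted p = 0.903). Footprints of Cdk4 thus did not pass the test, while its mRNA was less abundant in the KO library. Cdk2, the S-phase kinase, had 205 CPM of footprints in both WT libraries and 172 and 189 CPM in KO. The log2 change of Cdk2 was -0.14 with an interval of -0.27 to -0.02 and did not pass after adjustment (edgeR adjusted p = 0.0588), although it passed without the second KO library (0.0353), and its input ratio was -0.32 (-0.39 to -0.26). Cdk2 shares 7114 bases, its whole span, with Pmel, so its reads are uncertain. Pmel was lower in footprints (-0.59, edgeR adjusted p = 1.16e-05) and in input (log2 ratio -0.71), and its part in the Cdk2 values was not tested.

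Of the S-phase and mitotic cyclins, Ccna2 and Ccnb1 passed the test and Ccnb2 did not, and the difference between them was not tested. Ccna2, cyclin A2, which works with Cdk2 in S phase and Cdk1 in G2, had 268 and 274 CPM of footprints in WT and 322 and 324 CPM in KO. That is a log2 change of 0.27 ± 0.05 SE (edgeR adjusted p = 1.66e-06), with an input ratio of 0.39 (0.33 to 0.45), so mRNA and footprints were both higher and TE did not pass the test (-0.14, limma adjusted p = 0.321). Ccna2 overlaps Exosc9 over 863 bases. Ccnb1, cyclin B1, the main activator of Cdk1 at mitotic entry, had 52.8 and 49.7 CPM in WT against 60.7 and 64.2 CPM in KO (0.33 ± 0.11 SE, edgeR adjusted p = 0.0142). Leaving out the second library of WT (adjusted p = 0.175) or of KO (0.227) ended the Ccnb1 call, as did DESeq2 (0.213).

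For Ccnb2, the second B-type cyclin, footprints were 261 and 250 CPM in WT against 249 and 275 CPM in KO, so that the groups overlapped (log2 change of 0.08, interval -0.03 to 0.19, edgeR adjusted p = 0.251). Input ratios were 0.16 (0.08 to 0.24) for Ccnb1 and 0.05 (-0.02 to 0.12) for Ccnb2. Ccnf encodes cyclin F, which binds no CDK and serves as the substrate receptor of a ubiquitin ligase. Its footprints fell from 198 and 203 CPM in WT to 161 and 146 CPM in KO (-0.38 ± 0.07 SE, edgeR adjusted p = 1.06e-07), and its input was lower as well, at 473 against 572 CPM (-0.27, -0.32 to -0.23). Cdk1, the mitotic kinase, did not pass the footprint test. It had 401 and 407 CPM in WT against 386 and 403 CPM in KO, and the log2 change was -0.01 with an interval of -0.10 to 0.08 (edgeR adjusted p = 0.929).

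Promoters of mitotic genes are known for CCAAT boxes, bound by NF-Y, together with a cell cycle homology region (letters TTTGAA or TTTAAA) bound by MuvB complexes, which hold such genes low in G1. Windows from 150 bases before to 30 after the RefSeq start were searched on both strands for the box (CCAAT) and for both forms of the homology region, and no matches overlap in the windows shown. RefSeq held 34 windows of 30 of the 36 members. CCAAT stood in 16 of these 34 windows, each of another member, and in 27.0% of 32851 windows of all genes, and CCAAT with either homology region in 6 of 34 and 4.58%. The 6 were those of Ccnb1, Ccnb2, Ccnf, Cdk1, Cdk16 and Cdkn1b. The windows of the mitotic regulators Ccnb1, Ccnb2, Cdk1 and Ccnf, and of Cdkn1b, the inhibitor with the clearest rise, are printed 5′ to 3′ on the gene's strand, because these 5 share the motif pair but not the direction of change. Capitals mark the motifs (ATTGG is CCAAT on the other strand). In GRCm38.p6 they lie at chr13:100786457-100786636 (minus strand), chr9:70421525-70421704 (minus), chr10:69352883-69353062 (minus), chr17:24251380-24251559 (minus) and chr6:134920251-134920430 (plus).
Ccnb1: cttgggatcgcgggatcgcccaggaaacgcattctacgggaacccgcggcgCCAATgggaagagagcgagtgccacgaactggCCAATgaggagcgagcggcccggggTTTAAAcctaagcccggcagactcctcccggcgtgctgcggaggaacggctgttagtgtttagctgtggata
Ccnb2: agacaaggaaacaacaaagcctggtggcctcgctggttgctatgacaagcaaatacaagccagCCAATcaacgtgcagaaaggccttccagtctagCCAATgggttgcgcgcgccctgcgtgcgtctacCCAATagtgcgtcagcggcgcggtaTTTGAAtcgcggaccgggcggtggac
Cdk1: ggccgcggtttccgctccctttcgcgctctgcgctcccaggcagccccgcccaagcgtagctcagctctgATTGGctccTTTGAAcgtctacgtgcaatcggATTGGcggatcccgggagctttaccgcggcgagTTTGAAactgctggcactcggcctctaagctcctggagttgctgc
Ccnf: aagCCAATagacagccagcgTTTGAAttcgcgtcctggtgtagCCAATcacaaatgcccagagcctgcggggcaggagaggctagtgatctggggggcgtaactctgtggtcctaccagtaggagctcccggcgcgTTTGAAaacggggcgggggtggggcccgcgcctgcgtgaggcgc
Cdkn1b: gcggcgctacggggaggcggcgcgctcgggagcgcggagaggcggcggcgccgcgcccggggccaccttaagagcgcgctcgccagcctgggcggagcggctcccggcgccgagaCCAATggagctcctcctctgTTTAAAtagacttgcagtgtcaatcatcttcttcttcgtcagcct
CCAAT is found 3 times in the window of Ccnb2, 2 times in those of Ccnb1, Cdk1 and Ccnf, and 1 time in that of Cdkn1b. A match describes letters only and is not a bound site.

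The inhibitors gave the clearest single rise of the cell cycle branch. Of 5 measured, 2 rose (against 18.3% of all genes) and 0 fell (against 16.0%, and 0 also at an unadjusted p under 0.05 and with DESeq2), and 3 passed in neither direction. Cdkn1b (ENSMUSG00000003031.14, chromosome 6, 134920401 to 134925525) encodes p27, a Cip/Kip inhibitor of Cdk2 complexes. Its footprints were 125 and 124 CPM in WT against 226 and 246 CPM in KO, so every KO library was well above every WT library. The rise was 1.94-fold, or 0.96 ± 0.07 (SE) in log2 (edgeR adjusted p = 1.67e-46). It was called in all 10 alternative settings, some of which repeat the main fit. Input of Cdkn1b was 73.6 CPM in WT against 128 CPM in KO (log2 ratio 0.79, 0.69 to 0.89). TE was 1.69 in both WT libraries and 1.77 and 1.93 in KO, which did not pass the test (0.13, limma adjusted p = 0.534). Chromosome 6 as a whole was higher, and less its median the change of Cdkn1b was 0.65.

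Cdkn2a (chromosome 4, 89274473 to 89294619) encodes the INK4 inhibitor p16 and, in another reading frame, Arf, which acts on the p53 pathway. Counts per gene do not separate the products. Cdkn2a had 163 and 157 CPM of footprints in WT and 196 and 203 CPM in KO, a log2 change of 0.35 ± 0.06 SE (edgeR adjusted p = 7.3e-07). Its mRNA was close to equal, at 53.3 CPM in WT against 51.3 CPM in KO (-0.05, -0.19 to 0.08). TE was 3.07 and 2.96 in WT and 3.82 and 3.96 in KO, where both values of a genotype share 1 input library. The TE change of 0.37 missed the threshold (limma adjusted p = 0.0559). It passed with median centring (adjusted p = 0.0172) and when either KO library was left out (0.0209 and 0.0467).

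The neighbouring INK4 gene Cdkn2b, which encodes p15, had only 12 to 53 footprint reads per library. Its footprints were 4.82 and 6.11 CPM in WT against 5.83 and 6.34 CPM in KO, so a difference was not detectable at this depth (log2 change of 0.13, interval -0.47 to 0.73, edgeR adjusted p = 0.799). Cdkn2d, which encodes another INK4 protein, had 32.3 and 35.2 CPM in WT against 35.9 and 40.3 CPM in KO (0.20, interval -0.08 to 0.48, edgeR adjusted p = 0.298). Cdkn1a encodes p21, the Cip/Kip inhibitor induced by p53. It had 286 and 272 CPM in WT against 294 and 264 CPM in KO, so that KO libraries lay on either side of the WT values (0.02, interval -0.09 to 0.12, edgeR adjusted p = 0.842). The related p27 gene thus rose where p21 did not pass the test, and the difference between them was not tested.

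None of the 3 Cdc25 phosphatases passed the footprint test of edgeR or DESeq2 or the TE test of limma, and at an unadjusted p under 0.05 Cdc25a alone did so, in edgeR. Cdc25a, which acts on Cdk2 and Cdk1, had 155 and 153 CPM of footprints in WT and 133 and 139 CPM in KO (log2 change of -0.15, interval -0.29 to -0.01, edgeR adjusted p = 0.0864). Its KO libraries were below both WT libraries, and its input ratio was -0.34 (-0.41 to -0.28). Cdc25b, an activator of Cdk1 in G2, had 30.6 and 27.0 CPM in WT against 29.6 and 35.7 CPM in KO (0.26, edgeR adjusted p = 0.191), with overlap. Cdc25c, the mitotic form, had 33.2 and 33.5 CPM in WT but 23.8 and 35.1 CPM in KO (-0.10, edgeR adjusted p = 0.654). The KO libraries of Cdc25c thus differed more from each other than from WT, with 49 reads in the first and 122 in the second.

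**Figure D3:**
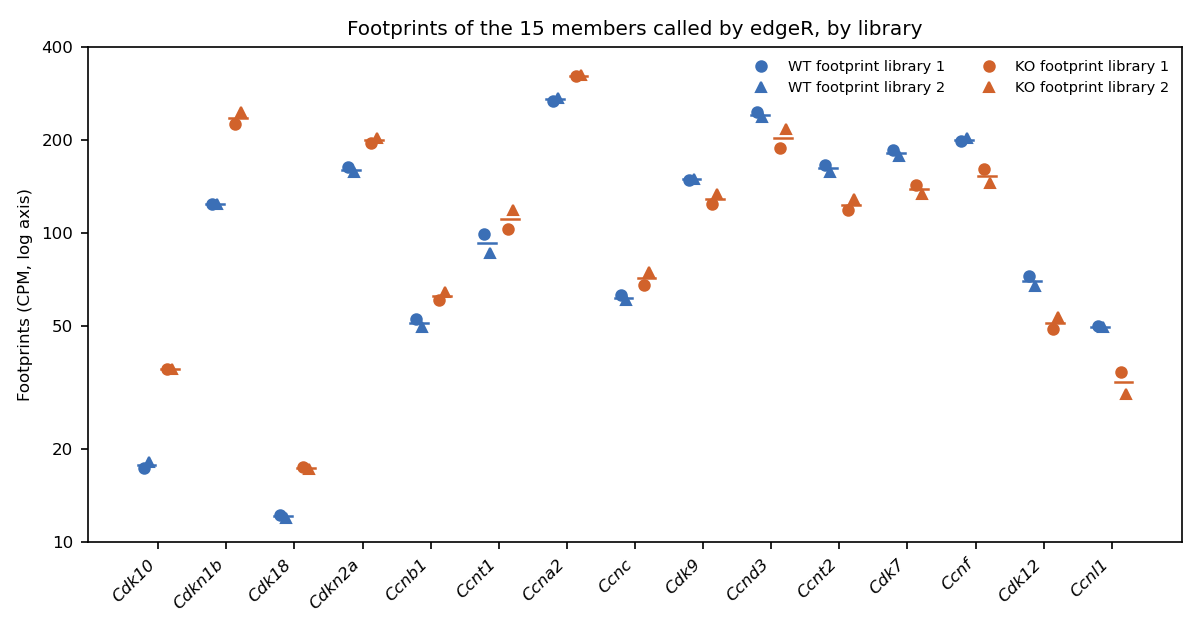
Footprint CPM (log axis) of the 15 members called by edgeR in each of the 2 WT (blue) and 2 KO (orange) libraries, with bars at the genotype means, ordered by log2 change. Cdk10 and Cdkn1b show the widest gap between genotypes. For all 15 the KO values lie wholly above or below the WT values, as for 29.8% (above) and 34.8% (below) of all genes. The 15 were picked by a test on these same libraries, so this separation adds no support to the calls.

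The kinases and cyclins of transcription and splicing made up 13 of the 36 members. In footprints 2 rose, 5 fell (15.4% and 38.5%, against 18.3% and 16.0% of all genes) and 6 passed in neither direction, with a median log2 change of -0.02, and DESeq2 called 0 higher (1 unadjusted) and 3 lower. In TE 0 were higher by limma (0 also unadjusted), 5 lower (38.5%, against 12.8% of all genes) and 8 neither (median of -0.44, against -0.03 for all genes). Their median input ratio was 0.35, against 0.05 for all genes. Among the other 23 members 6 rose and 2 fell in footprints, and 1 was higher and 0 lower in TE by limma (4 and 0 at an unadjusted p under 0.05), with medians of 0.13 in footprints, 0.14 in TE and -0.02 in input. The contrast between these groups is a description with no test.

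**Figure D4:**
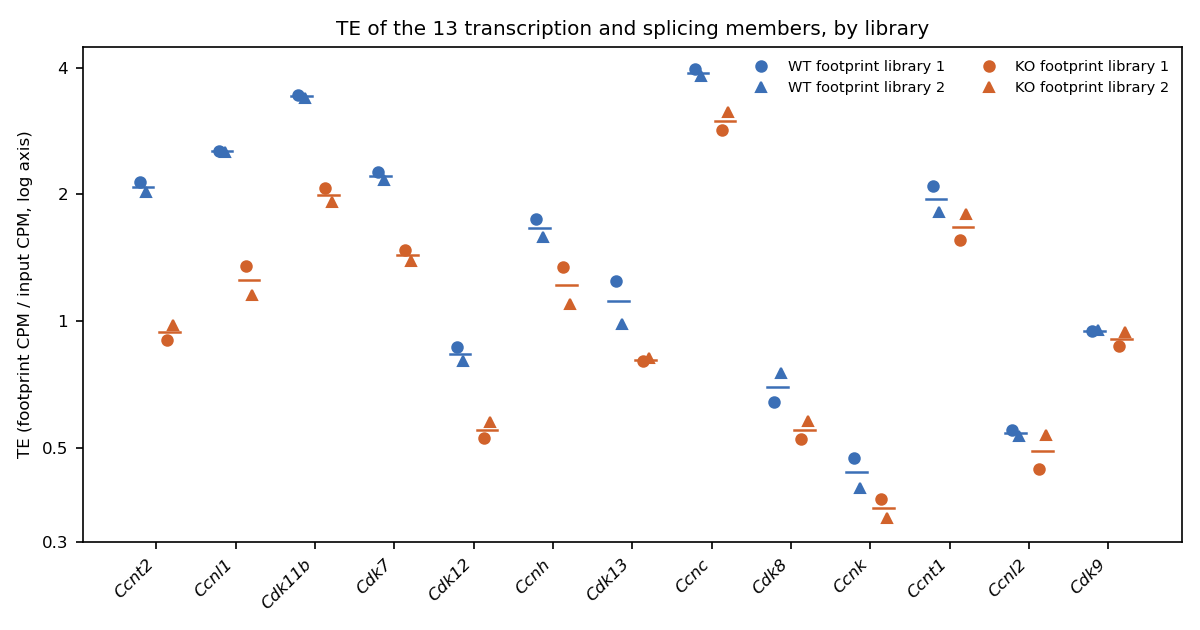
TE (footprint CPM over input CPM, log axis) of the 13 transcription and splicing members in each WT (blue) and KO (orange) footprint library, with bars at the genotype means. Both libraries of a genotype share 1 input library. Ccnt2 fell furthest, from 2.14 and 2.03 to 0.904 and 0.982, whereas the values of Ccnl2 overlap.

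P-TEFb, the kinase that releases paused RNA polymerase II, consists of Cdk9 and cyclin T1 or T2. In footprints its cyclins were called in opposite directions, and the difference between them was not tested. Ccnt1 rose from 99.6 and 86.5 CPM of footprints in WT to 103 and 119 CPM in KO (log2 change of 0.33 ± 0.09 SE, edgeR adjusted p = 0.000698). Its call ended when the second library of WT (adjusted p = 0.175) or of KO (0.247) was left out, and with DESeq2 (0.124). Ccnt2 (ENSMUSG00000026349.14, chromosome 1, 127774164 to 127804837) fell from 166 and 158 CPM to 118 and 129 CPM (-0.34 ± 0.07 SE, edgeR adjusted p = 2.11e-05), called in all 10 settings. Input was higher in KO for both, at 66.2 against 47.7 CPM for Ccnt1 (0.46, 0.34 to 0.59) and 131 against 77.5 CPM for Ccnt2 (0.75, 0.65 to 0.85).

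The TE of Ccnt2 accordingly differed most among the members, at -1.14 ± 0.13 SE (limma adjusted p = 1.42e-06). TE of Ccnt1 was 2.09 and 1.81 in WT and 1.56 and 1.79 in KO and did not pass the test (-0.21, limma adjusted p = 0.452). Cdk9 itself had 149 and 150 CPM of footprints in WT and 124 and 134 CPM in KO (-0.18 ± 0.07 SE, edgeR adjusted p = 0.0429). The Cdk9 call was the least stable of the 15. It was lost in 6 of 10 settings, among them each of the 4 that leave out a library, with adjusted p-values from 0.0429 to 0.296 over all settings.

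Cdk7 and cyclin H form the kinase of the general transcription factor TFIIH, which also activates Cdk1, Cdk2 and Cdk4. Footprints of Cdk7 (chromosome 13, 100697024 to 100730942) were 186 and 177 CPM in WT against 143 and 134 CPM in KO, without overlap. The fall was -0.37 ± 0.07 SE (edgeR adjusted p = 1.28e-06) and was called in all 10 settings. Its input ratio was 0.23 (0.13 to 0.33), and TE went from 2.26 and 2.16 to 1.48 and 1.39 (-0.62 ± 0.13 SE, limma adjusted p = 0.00117). The partner Ccnh did not follow in footprints, which were 56.2 and 50.8 CPM in WT against 63.6 and 51.8 CPM in KO (0.12, edgeR adjusted p = 0.446). TE of Ccnh was 1.75 and 1.58 in WT and 1.35 and 1.10 in KO (-0.44, limma adjusted p = 0.192), and it passed only without the first KO library (adjusted p = 0.026).

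Cyclins L1 and L2 bind Cdk11 and act in splicing. Ccnl1 (ENSMUSG00000027829.15, chromosome 3, 65945908 to 65962029) had the lowest footprint change of the members. It had 49.9 and 49.7 CPM in WT against 35.4 and 30.2 CPM in KO, which is 1.52-fold lower, or -0.60 ± 0.14 (SE) in log2 (edgeR adjusted p = 9.16e-05). The call was lost without the second KO library (adjusted p = 0.0543). Input of Ccnl1 was 19.7 CPM in WT against 26.2 CPM in KO (0.40, 0.20 to 0.60), and TE went from 2.54 and 2.53 to 1.35 and 1.15 (-0.99 ± 0.26 SE, limma adjusted p = 0.00827). For Ccnl2, footprints were 41.4 and 40.1 CPM in WT against 35.9 and 43.2 CPM in KO, on both sides of the WT values (0.01, interval -0.25 to 0.28, edgeR adjusted p = 0.952).

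Cdk11b, the kinase of these cyclins, was called in TE but not in footprints. Its footprints were 146 and 143 CPM in WT against 151 and 139 CPM in KO (0.02, interval -0.12 to 0.16, edgeR adjusted p = 0.855), while input was 42.2 CPM in WT against 72.8 CPM in KO (0.77, 0.64 to 0.90). TE was 3.45 and 3.39 in WT and 2.08 and 1.92 in KO (-0.77 ± 0.14 SE, limma adjusted p = 0.0004). This TE call therefore rests on the single input libraries.

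Cdk12 and Cdk13 bind cyclin K and phosphorylate elongating RNA polymerase II. Cdk12 (chromosome 11, 98202433 to 98281101) fell from 72.6 and 67.3 CPM of footprints in WT to 49.0 and 53.6 CPM in KO (-0.39 ± 0.11 SE, edgeR adjusted p = 0.00198), a call lost with DESeq2 (adjusted p = 0.0767). Chromosome 11 was lower as a whole, and less its median the change was -0.21. TE of Cdk12 was 0.868 and 0.805 in WT and 0.528 and 0.577 in KO (-0.59 ± 0.18 SE, limma adjusted p = 0.0226), a call also lost with median centring (adjusted p = 0.0571) and without the first WT library (0.114). The paralogue Cdk13 had 44.0 and 34.7 CPM of footprints in WT and 33.5 and 34.0 CPM in KO (-0.14, edgeR adjusted p = 0.475), and Ccnk 36.0 and 30.7 against 33.5 and 30.2 CPM (-0.02, edgeR adjusted p = 0.929).

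The Mediator kinase pairs Cdk8 with cyclin C. Ccnc had 63.0 and 60.6 CPM of footprints in WT and 68.0 and 74.9 CPM in KO (0.25 ± 0.10 SE, edgeR adjusted p = 0.0449), with an input ratio of 0.56 (0.35 to 0.77). The Ccnc call was lost in 5 of 10 settings, with adjusted p-values up to 0.489, and the gene overlaps Tstd3 over 2541 bases. Cdk8 had 21 to 98 reads per library, with 9.65 and 11.3 CPM in WT against 10.2 and 11.2 CPM in KO, so only a large difference could have been detected (interval -0.44 to 0.51).

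Of the 7 kinases and cyclins with other roles, 2 rose in footprints by edgeR (28.6%, against 18.3% of all genes). By the same test 0 fell (against 16.0% of all genes, and 0 also unadjusted), and DESeq2 called 1 higher and 0 lower. In TE limma called 0, also unadjusted, against 4.88% of all genes higher and 12.8% lower. Cdk10 (ENSMUSG00000033862.7, chromosome 8, 123224841 to 123232256), a kinase that acts with cyclin M, had 17.3 and 18.1 CPM in WT against 36.4 and 36.3 CPM in KO. KO values were thus 2.07-fold those of WT (log2 change of 1.05 ± 0.17 SE, edgeR adjusted p = 6.88e-09), and was called in all 10 settings. Input of Cdk10 was 22.9 CPM in WT against 34.1 CPM in KO (0.56, 0.38 to 0.74). Chromosome 8 was higher as a whole, and less its median the change was 0.66. Cdk18, a PCTAIRE kinase, had 12.2 and 12.0 CPM in WT against 17.5 and 17.3 CPM in KO, from 36 to 104 reads per library (0.55 ± 0.21 SE, edgeR adjusted p = 0.0331). The Cdk18 call was lost without any 1 of the 4 libraries (adjusted p = 0.0536 to 0.209) and with DESeq2 (0.285). The remaining 5, Cdk5, Cdk16, Cdk17, Cdk20 and Ccny, had log2 changes of -0.16 to 0.25, and the smallest edgeR adjusted p among them was 0.268 for Cdk16.

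**Figure D5:**
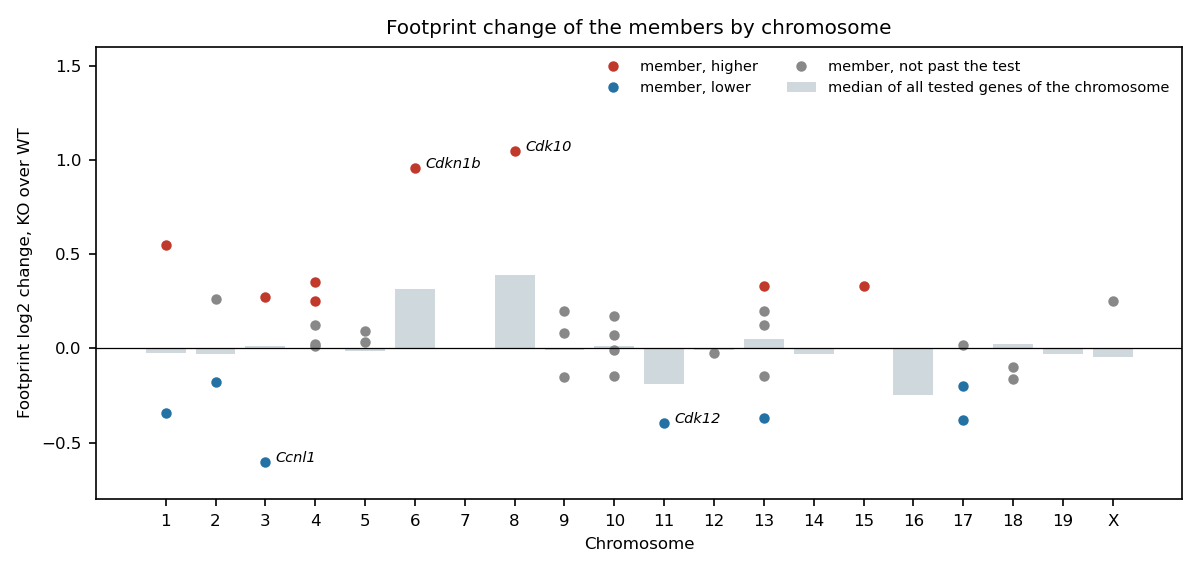
Footprint log2 change of each member (points, coloured by edgeR call) by chromosome, with bars at the median of all tested genes of that chromosome. Cdkn1b and Cdk10 lie on chromosomes 6 and 8, whose medians are 0.31 and 0.39, and both lie above those medians.

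The chromosome-wide shifts in footprints named above touched 3 of the 36 members. Cdkn1b, Cdk10 and Cdk12 are the members on chromosomes 6, 8 and 11, and none lies on 16. Each kept its direction after the chromosome median was taken off. The other 12 members called in footprints lie on chromosomes whose footprint medians were within 0.05 of 0. Medians of TE and input differed between chromosomes as well. On chromosomes 1, 3 and 13, which hold Ccnt2, Ccnl1 and Cdk7, the median TE change was -0.18, -0.17 and -0.16. The median input ratio there was 0.16, 0.19 and 0.18. On chromosomes 4 and 11, which hold Cdk11b and Cdk12, the median TE change was 0.02 and 0.05. TE changes less these medians were not tested.

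TE values in WT cells, which are ratios of separately scaled CPM and not shares of mRNA, also varied among the members. TE, averaged over the WT footprint libraries, had a median of 0.848 among the members and 0.890 among all genes. It was lowest for Cdk16, at 0.0870 and 0.0973, and for its cyclin partner Ccny, at 0.169 and 0.138. The highest WT values were those of Ccnc (3.96 and 3.81), Cdk11b (3.45 and 3.39) and Cdkn2a (3.07 and 2.96). KO values of Cdk16 were 0.132 and 0.0979, and it was the lowest member there too. Which part of each gene was counted is not given in the sources used here, so these ratios are not compared further.

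Other genes of the pathway were read from a list of pocket proteins and E2F factors, CDK-directed kinases and adaptors, and ubiquitin ligase parts that act on cyclins and inhibitors. Of 53 measured genes, 10 rose and 10 fell in footprints (18.9% each, against 18.3% and 16.0% of all genes), 33 passed in neither direction (median of 0.00), and in TE 4 were higher and 7 lower (7.55% and 13.2%, against 4.88% and 12.8%). Among 11 pocket proteins and E2F factors 2 rose and 0 fell by edgeR (0 also unadjusted and with DESeq2), and both, E2f4 (0.35) and its dimer partner Tfdp1 (0.51), lie on chromosome 8. Among 16 CDK-directed genes 3 rose and 2 fell, while DESeq2 called 1 higher and 0 lower (1 lower unadjusted). Cdk2ap2 had 8.51 and 7.03 CPM in WT against 13.1 and 16.4 CPM in KO (log2 change of 1.03, edgeR adjusted p = 9.72e-05), and Cdkn3, a phosphatase of CDKs, 15.6 and 16.7 against 28.6 and 32.0 CPM (0.93, edgeR adjusted p = 2.24e-06). Ccndbp1, which binds D-type cyclins, fell by 0.35 on the log2 scale.

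Among 26 ubiquitin ligase genes 5 rose and 8 fell (19.2% and 30.8%, against 18.3% and 16.0% of all genes), and DESeq2 called 2 and 2. Of those that rose, Fbxo31 (0.49), Anapc10 (0.46) and Cdc16 (0.24) lie on chromosome 8, with its median of 0.39. Of those that fell, Fbxw11 (-0.31) and Skp1a (-0.14) lie on chromosome 11, with its median of -0.19, where Anapc11 rose (0.27). Skp2, the receptor that sends p27 to the proteasome, had 88.2 and 91.5 CPM of footprints in WT and 77.2 and 66.2 CPM in KO (-0.34, edgeR adjusted p = 0.00264), while footprints of its substrate's gene Cdkn1b were higher. Fbxw7, whose ligase acts on cyclin E, fell by 0.74 on the log2 scale. Protein levels were not measured.

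Genes that peak at known cell cycle phases give the context for the cyclins. Of 20 G1/S genes, 5 rose and 5 fell in footprints (25.0% each, against 18.3% and 16.0% of all genes), and DESeq2 called 4 higher and 1 lower. In TE 3 were higher and 3 lower (against 4.88% and 12.8% of all genes), and 0 were past 1.5-fold in input. Cdt1 (0.44) and Slbp (0.43) were among those that rose, and Chaf1b (-0.25), Mcm4 (-0.24) and Cdc45 (-0.22) fell most. The last 3 lie on chromosome 16, whose median was -0.25, and Cdt1 lies on chromosome 8. Of 24 G2/M genes, 10 rose and 5 fell in footprints (41.7% and 20.8%, against 18.3% and 16.0% of all genes), where DESeq2 called 3 and 2. In TE 0 were higher by limma (2 unadjusted) and 14 lower (58.3%, against 12.8% of all genes), and the p-values of the authors' deposited table left 1 and 4 after adjustment. With a spread of 0.2 (log2) added for each input library, 0 of all genes stayed lower in TE. All lower TE calls of the G2/M and G1/S genes were thus lost. Input of the G2/M genes, from 1 library per genotype and without a test, was past 1.5-fold higher for 14 and lower for 1 (against 15.1% and 6.17% of all genes). Their medians were 0.08 in footprints, -0.70 in TE and 0.77 in input. Ckap2 (0.45), Cenpa (0.45) and Cenpf (0.31) rose most, and Gtse1 (-0.65), Top2a (-0.22) and Aurkb (-0.20) fell most. Ckap2 lies on chromosome 8, with its median of 0.39, and Top2a and Aurkb lie on chromosome 11, with its median of -0.19.

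The cyclins and kinase of mitosis lay below the G2/M median in input. They were past 1.5-fold in neither direction, as were 9 of the 24 G2/M genes. Input ratios were 0.16 for Ccnb1, 0.05 for Ccnb2 and 0.10 for Cdk1, against a G2/M median of 0.77, and their TE changes were 0.12, -0.01 and -0.13, against -0.70. None of the 3 passed the TE test (limma adjusted p = 0.679, 0.965 and 0.312). This is a description of single input libraries, and the difference was not tested.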

How the data were processed

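The 6 libraries were grouped by title into footprints (2 WT, 2 KO) and input (1 of each). Per the file headers, footprints were deposited as raw counts per gene. Footprints and input were deposited as CPM, and each CPM of footprints was the count over 1 constant per library, which gave the library totals. Input reads rest on the lowest value standing for 1 read, since all values were whole multiples of it (100%, tolerance of 0.01). Too few input values are low enough to check this further, so input totals, read numbers and intervals hold only on that assumption. The authors gave TE as the ratio of the CPM values of footprints and input, together with a log2 change of the mean ratios and an unadjusted p-value per gene. Both TE values of a genotype use 1 input for all 9093 genes, and 2 further columns, named as a second input of each genotype and matching no sample label, were not used. Per the submitters' processing notes, Bowtie and mm10 were used. Not given in the sources used here are the read counter, annotation, strand setting and gene filter.

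The test of footprints was that of edgeR 4.0.16 (quasi-likelihood, TMM, totals before the authors' filter) and that of TE the genotype by library type interaction in limma 3.58.1 (trend) on log2(CPM + 1), under R 4.3.3. That scale understates changes of low genes. Both were fitted over all 9093 genes with Benjamini-Hochberg adjustment, 0.05 as the threshold and 2 residual degrees of freedom, all from footprints. The prior degrees of freedom, which set how far the spread is pooled over genes, were infinite in edgeR and 19.4 in limma. The p-values, SEs and intervals of edgeR thus give no weight to a gene's own replicate spread and may be too narrow for single genes. The low-value filters, edgeR's own and a floor of 1 CPM for TE, removed 0 genes. Input was compared as a log2 ratio with 1 CPM added, and its 95% intervals cover counting error only, where copied reads are not independent molecules. Member lows were 12 footprint reads and 136 input reads. Alternatives were DESeq2 1.42.0, other scaling, filters and pseudocounts, each library left out, the replicate number as a block, and an added input spread. Positions came from RefSeq (GRCm38.p6), which matched 9057 genes and all 36 members. The naming pattern matched 38 rows, of which 2 are not reported here. Members and gene lists were chosen with earlier results of these data known. Values in every library are given for the cyclins, kinases, inhibitors and phosphatases that direct the cell cycle and for other members called by either test. From the outer lists, up to 3 called genes with the largest footprint change each way are named. E2f4 was named after its value was seen, as were Ccnh, Ccnk, Ccnl2, Cdk8, Cdk13, Cdk16 and Ccny. The same holds for Anapc10, Anapc11, Cdc16, Fbxo31, Fbxw11 and Skp1a, named for their chromosomes.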

Additional observations from a re-analysis of the deposited data

How the results depend on the processing

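Of 15 footprint calls among the members, 7 (Ccna2, Ccnf, Ccnt2, Cdk10, Cdk7, Cdkn1b and Cdkn2a) were kept in all 10 settings, and of 6 TE calls 0 were kept in all 11. Not every setting could change a call. Without the low-count filter, or with library totals summed over the tested genes, the footprint fit gave its main values again. Other scaling hardly moved them. The TE fit without a floor repeats its main fit, since the floor removed 0 genes. DESeq2 called 4 members higher and 4 lower in footprints, and leaving out 1 library gave 4 to 7 higher and 5 to 6 lower. A library left alone in its genotype is then assumed to vary like the others, and the cause of each change was not tested. Median centring gave 4 members higher in TE, and leaving out 1 library gave 1 to 4. An added input spread of 0.2 left 0 members higher and 0 lower in TE by limma (0 and 3 at an unadjusted p under 0.05), and 4 and 0 of all genes. The authors' p-values, once adjusted, left 0 and 0 members (6 and 7 unadjusted). The replicate block gave 7 higher and 6 lower in footprints and 1 and 5 in TE. Same-numbered footprint libraries did not deviate together (correlation of -0.0327), and the labels do not say that the numbers pair them. The planned count interaction on input reads was not run, because input was deposited as CPM.

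Directions turned only for changes not called in the fit concerned. Ccnl2 turned to -0.0035 in footprints with DESeq2, and with median centring TE turned to 0.024 for Cdk9, 0.068 for Cdk17 and 0.082 for Ccnb2. With 1 library left out, footprint changes ran from -0.022 to 0.085 for Cdk11b, -0.050 to 0.022 for Cdk1, -0.17 to 0.066 for Ccnk, -0.043 to 0.10 for Cdkn1a, -0.36 to 0.11 for Ccny, -0.16 to 0.12 for Ccnl2, -0.060 to 0.19 for Cdk8, -0.010 to 0.14 for Ccnb2 and -0.47 to 0.10 for Cdc25c. TE changes ran from -0.19 to 0.14 for Cdk17, -0.25 to 0.014 for Cdk20, -0.083 to 0.062 for Ccnb2 and -0.45 to 0.10 for Cdc25c. Depth limits Cdkn2b, Cdk8, Ccny and Cdk20, which had fewer than 100 footprint reads in every library.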
